A study of Mus musculus with 24 samples.

Results

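The comparison described here set stromal cells of wild-type C57BL/6 embryonic kidneys against stromal cells of wild-type CD1 embryonic kidneys, both at E12.5 (E for embryonic day), across all 13803 genes of the deposited table. It used 6 of the 24 libraries of the series, 3 from each strain background. C57BL/6 is an inbred strain and CD1 is an outbred stock, so the embryos of the CD1 group need not be genetically identical to each other. The series as a whole held 8 groups of 3 libraries: wild-type kidneys on both backgrounds, β-catSD kidneys (β-catenin deficient stroma) on C57BL/6, and β-catSO kidneys (stabilised β-catenin in stroma) on CD1, each at E12.5 and E13.5. The strain difference is therefore the difference between the controls of the deficient and of the stabilised kidneys. Every group came from mice with the FoxD1Cre-eGFP transgene, in which Foxd1 sequences drive Cre fused to green fluorescent protein, and the cells were taken by fluorescence-activated sorting after collagenase digestion. No drug or other treatment is given for any group. The design text gives 3 kidneys from each genotype, and nothing in it says whether the 3 kidneys came from separate litters. Each of the 6 libraries held RNA of both sexes (below), so a library need not stand for a single embryo. The p-values below therefore measure only the spread between samples within groups, pooled over all 24 libraries of the series. The labels do not say which libraries went through a second sort, and the C57BL/6 substrain is not given in the sources used here.

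Foxd1-expressing stromal progenitors surround the nephron progenitors of the developing kidney and give rise to its interstitial fibroblasts, pericytes, vascular smooth muscle, mesangial cells and renin cells. They send signals that shape ureteric branching and nephron differentiation. Genetic background is known to alter kidney size, nephron number and the severity of many mutant kidney phenotypes in the mouse. Mouse stocks differ from each other in copy number variants, coding deletions and regulatory alleles.

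Reads assigned to genes numbered 10118195, 12014598 and 12049222 in C57BL/6 replicates 1 to 3 and 9564750, 10029826 and 9566086 in the CD1 replicates, within a range of 6184257 to 21168300 over the series. The sorted identity was checked with 18 stromal marker genes, whose mean log2 CPM (the log2 of reads scaled to library size, the scale of all levels below) lay between 8.68 and 8.82 in all 6 libraries. Foxd1 itself stood at 9.22, 9.11 and 8.85 in C57BL/6 and at 9.05, 8.82 and 8.81 in CD1, a difference of 0.16 ± 0.15 (standard error, adjusted p = 0.674 in limma). Libraries also differed within their groups. C57BL/6 replicate 3 carried liver transcripts: albumin (Alb) was at 10.44 there, against -4.35 and -3.005 in replicates 1 and 2 and 5.68, 5.77 and 5.46 in CD1. Its macrophage markers, 15 genes with means of 2.45, 2.59 and 5.17 in C57BL/6 replicates 1 to 3 and 5.34, 5.38 and 5.25 in CD1, also lay with CD1. Over all genes it correlated at 0.956 to 0.957 with the CD1 libraries and at 0.933 to 0.942 with the other C57BL/6 libraries, which correlated with each other at 0.961. The counts of called genes are therefore given with and without it. Replicate 1 was the low library of each group in endothelial markers, at means of 1.66, 3.67 and 3.48 in C57BL/6 replicates 1 to 3 and 2.84, 4.63 and 4.58 in CD1, and in ureteric epithelium markers, at -1.18, 1.67 and 1.46 and at -0.24, 1.90 and 1.46. These are bulk libraries, in which fewer cells of a type and less RNA per cell cannot be told apart.

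**Figure D1:**
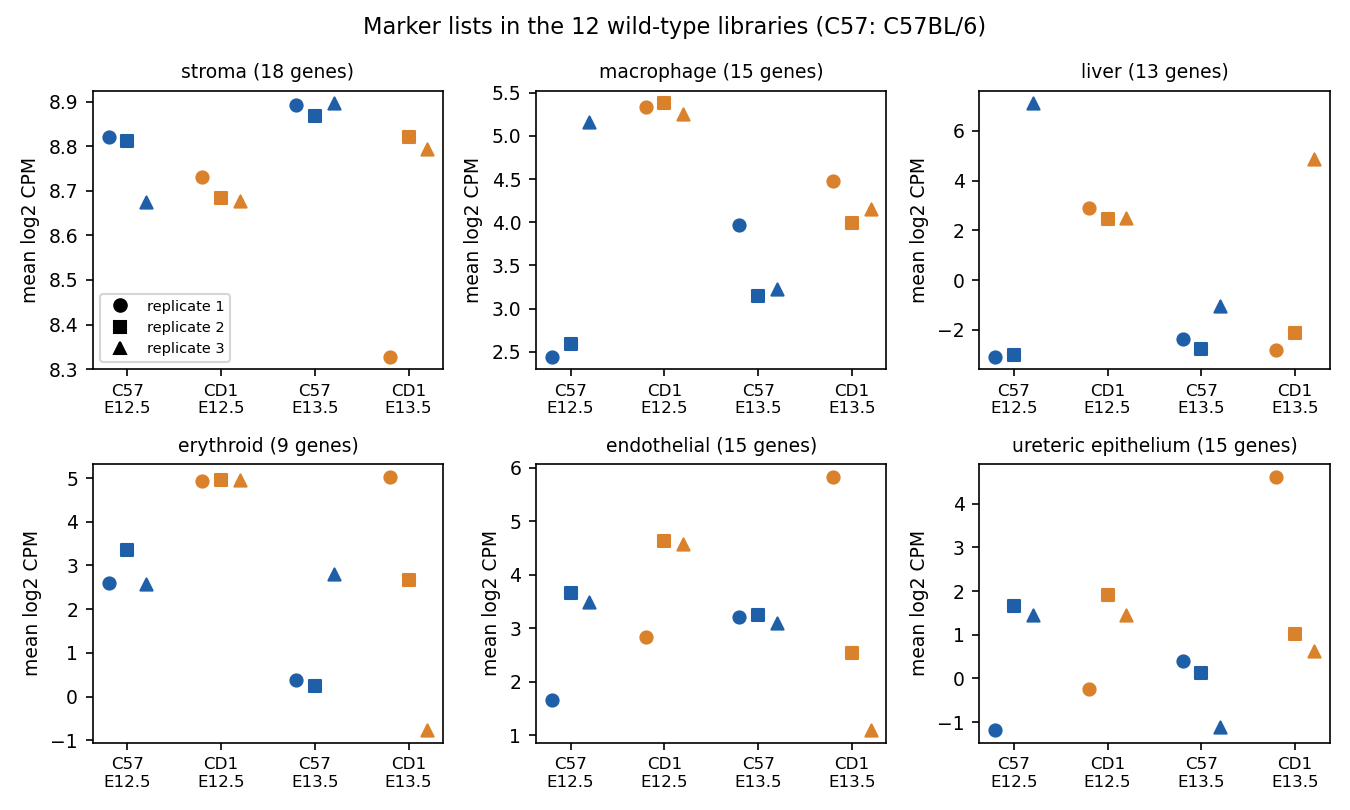
Mean log2 CPM of 6 marker lists (vertical axis) in the 12 wild-type libraries, by strain and stage (horizontal axis), with circles, squares and triangles for replicates 1, 2 and 3; the axes differ between panels. C57BL/6 replicate 3 of E12.5 lies at 7.12 for liver genes and 5.17 for macrophage genes, and away from replicates 1 and 2 of its group for both lists.

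At E12.5, 75 of 13803 genes differed between the strains at an adjusted p under 0.05 (limma, Benjamini-Hochberg adjustment over all genes), or 0.543% of those tested. Of these, 53 were higher in C57BL/6 (0.384%) and 22 were lower (0.159%), and 33 differed at least 2-fold. The genes higher in C57BL/6 had a median log2 difference of 0.65 and included the pericyte gene Rgs5 and 4 ribosomal protein genes. The genes lower in C57BL/6 had a median of -1.27 and included the lysosomal proteases Ctsd and Lgmn, the activin subunit gene Inhba and the splicing factor gene Cwc22. The median over all genes was 0.00, and 1963 genes (14.2%) had an unadjusted p under 0.05. In all 75 called genes the 3 C57BL/6 libraries lay apart from the 3 CD1 libraries, as they did for 20.1% of all genes. Without C57BL/6 replicate 3 the count was 459 (3.33%), with 121 higher (0.877%) and 338 lower (2.45%), and it included all 75. Leaving out another library gave 19 (C57BL/6 replicate 1), 18 (C57BL/6 replicate 2), 40 (CD1 replicate 1), 22 (CD1 replicate 2) or 38 (CD1 replicate 3) called genes. The balance between directions also moved with the scale, to 61 higher and 50 lower when 1 CPM was added before the logarithm and to 52 higher and 70 lower with precision weights (voom) on the reads. With only the 12 wild-type libraries in the fit 30 genes were called, 26 of them among the 75.

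**Figure D2:**
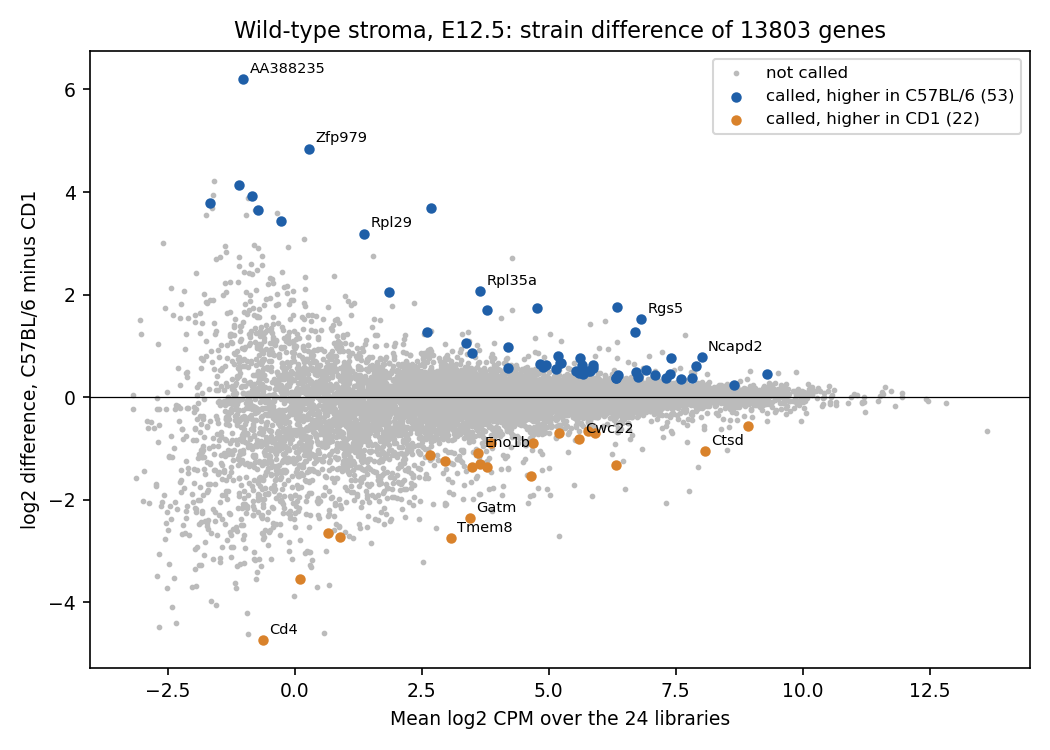
Log2 difference between C57BL/6 and CD1 wild-type stroma at E12.5 (vertical axis, positive where C57BL/6 is higher) against the mean log2 CPM over the 24 libraries (horizontal axis), 1 point per gene. The 53 called genes higher in C57BL/6 are blue, the 22 higher in CD1 are orange, and the extreme values at the left belong to genes with few reads, among them AA388235, which had no read in CD1.

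Rgs5 encodes a regulator of G-protein signalling that marks pericytes and other mural cells (chr1:169655501-169695813, plus strand, mm10 as are all positions here). Its level was 7.32, 7.36 and 6.96 in C57BL/6 and 5.37, 5.92 and 5.78 in CD1. The groups lay well apart, with a difference of 1.53 ± 0.15, or 2.88-fold (adjusted p = 5.26e-06 in limma). The call held when any 1 of the 6 libraries was left out. Other mural cell genes examined were not called. Pdgfrb, the pericyte receptor for platelet-derived growth factor, stood at 8.34, 8.32 and 8.15 in C57BL/6 and 8.49, 8.47 and 8.46 in CD1 (-0.20, adjusted p = 0.302). Of 8 smooth muscle genes, 0 were called in limma, with or without precision weights, and 5 had an unadjusted p under 0.05, against 14.2% of all genes. In this list 7 had negative differences and the median was -0.70.

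Cytosolic ribosomal protein genes supplied 4 of the 53 higher genes and none of the lower, out of 82 in the table, against 0.384% of all genes higher and 0.159% lower. Their median difference was -0.07, with 29 positive and 53 negative, and without C57BL/6 replicate 3 the counts were 4 higher and 1 lower. Rpl29, a large-subunit protein gene (chr9:106429454-106431568, plus strand), was at 4.14, 3.87 and 3.74 in C57BL/6 and at 1.10, 0.51 and 0.58 in CD1, a difference of 3.19 ± 0.58 or 9.12-fold (adjusted p = 0.0105). Rps2, of the small subunit (chr17:24718116-24721929, plus strand), was at 6.03, 5.76 and 5.65 in C57BL/6 and at 4.12, 3.53 and 4.59 in CD1, a difference of 1.73 ± 0.32 (adjusted p = 0.0105). In neither gene did the groups overlap, which held for every called gene. Both genes have many near-identical copies in the genome: stretches of at least 200 bases at 95% identity or more were found at 35 other loci for Rpl29 and at 32 for Rps2, so reads may be split between copies in the counting and the values of these genes are uncertain. No such stretch was found for Rpl35a or Rps28. The search covered annotated transcripts alone, so it does not settle how reads of these genes were assigned. The mean of the 82 genes lay between 7.76 and 8.02 in the 6 libraries. Rpl35a lay below that in each library, and its values are uncertain too. Rpl35a (chr16:33056453-33060189, plus strand) was at 4.66, 4.86 and 4.58 in C57BL/6 and at 2.15, 2.42 and 3.33 in CD1, a difference of 2.06 ± 0.37 (adjusted p = 0.00978). Rps28 (chr17:33819027-33824562, minus strand) was at 7.53, 7.58 and 7.51 in C57BL/6 and at 6.89, 6.75 and 6.70 in CD1, a difference of 0.76 ± 0.11 (adjusted p = 0.000606), and was called in each of the 6 fits that left out a library. Rpl29 and Rps2 lost their calls without C57BL/6 replicate 1 or 2 or CD1 replicate 2, and Rpl35a without C57BL/6 replicate 2 or CD1 replicate 1 or 2, with adjusted p-values of at most 0.0664, 0.0775 and 0.0558.

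Among genes with few reads, AA388235 was the extreme case. It had 128 reads over the 3 C57BL/6 libraries and none in any CD1 library, which makes it at least 36.4-fold higher in C57BL/6 when 3 reads are taken as the floor for the summed CD1 group (adjusted p = 5.26e-06). This gene and 2610507I01Rik have identifier-like symbols and are named because of their values. 2610507I01Rik had 413 reads in C57BL/6 and 28 in CD1, a ratio of 12.6 with a 95% interval of 8.58 to 19.2 for counting error only. Trim12a, of the tripartite-motif antiviral family, had 25 reads in C57BL/6 and none in CD1, at least 7.11-fold higher (adjusted p = 0.0241). It was the only called member among 24 interferon and antiviral genes, against 0.543% of all genes called. Of the 24, 6 had positive and 18 negative differences, at a median of -0.22. Zfp979, a zinc finger gene, had 113 reads against 5, a ratio of 19.3 with an interval of 8.03 to 60.6 (adjusted p = 0.00697). Together with Zfp280c, higher by 0.67 ± 0.13 (adjusted p = 0.0129), it made 2 called genes of 357 Zfp genes, a share close to the 0.543% called over all genes, and the median of the family was 0.03. Without C57BL/6 replicate 3, 4 Zfp genes were called higher, against 0.877% of all genes. Trim12a lost its call with precision weights and without any library except C57BL/6 replicate 3 (adjusted p at most 0.137), Zfp280c without C57BL/6 replicate 1 or 2 or CD1 replicate 2 or 3 (at most 0.107), and Zfp979 without CD1 replicate 2 (0.0535).

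Ncapd2 and Pclaf differed less in size but evenly across libraries. Ncapd2, a condensin I subunit gene, was at 8.23, 8.30 and 8.19 in C57BL/6 and at 7.46, 7.48 and 7.44 in CD1. The spread within each strain was far below the difference of 0.78 ± 0.10, or 1.71-fold (adjusted p = 0.000177). Pclaf, which encodes a PCNA-binding factor of replicating cells, was at 8.01, 7.96 and 7.94 in C57BL/6 and at 7.35, 7.31 and 7.41 in CD1, a difference of 0.61 ± 0.07 (adjusted p = 6.48e-05). Neither call depended on a single library. The called set also held Kif11, Pbk, Cdca3, Cenpk and Trip13, genes of the spindle, the kinetochore and the mitotic checkpoint, and the kinase gene Cdk6, at log2 differences of 0.45 to 0.63. These 6 were picked out after their values were seen. They lost their calls in 4 or 5 of the 6 fits that left out a library, with adjusted p-values of at most 0.183, and each kept its call without C57BL/6 replicate 3. Pbk also lost its call in limma with precision weights (adjusted p = 0.0566). Of the 20 genes in the cell cycle list, 0 were called in limma, with or without precision weights. An unadjusted p under 0.05 was found for 8, against 14.2% of all genes, while 18 had a positive difference and the median was 0.16. Without C57BL/6 replicate 3, Bub1 and Rrm2 of that list were called higher, against 0.877% of all genes.

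Further genes higher in C57BL/6 had varied roles. Cux2, a homeobox transcription factor gene, was at 4.18, 4.43 and 3.89 in C57BL/6 and at 2.73, 2.03 and 2.61 in CD1, a difference of 1.71 ± 0.32 (adjusted p = 0.0121). Il11ra1, the receptor chain for interleukin 11, was at 5.26, 5.32 and 5.26 against 4.31, 4.61 and 4.54, a difference of 0.80 ± 0.15 (adjusted p = 0.0128). Phb, a mitochondrial scaffold gene, was at 7.46, 7.37 and 6.90 against 5.85, 6.30 and 5.80, a difference of 1.26 ± 0.28 (adjusted p = 0.0334). The groups did not overlap in any of these genes, as in every called gene, and separate groups were a condition for naming them. Snx10, which encodes a sorting nexin of endosomes, was higher by 2.05 ± 0.46 and varied widely within CD1, from -0.56 to 1.39. D2hgdh, the mitochondrial D-2-hydroxyglutarate dehydrogenase, was higher by 1.28 ± 0.29, and Irak1bp1, a binding partner of the kinase IRAK1, by 1.06 ± 0.22. Mns1, a gene of the axoneme of cilia and flagella, was higher by 0.99 ± 0.14 (adjusted p = 0.00111) and Celf4, an RNA-binding protein gene, by 0.87 ± 0.19. Of the 8 genes, Mns1 was called with any library left out, and the other 7 lost their calls in 3 to 5 of the 6 such fits, each without C57BL/6 replicate 1 or 2 among others, with adjusted p-values of at most 0.183. Cux2, D2hgdh and Snx10 also lost them with precision weights.

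Ctsd, Lgmn and Gatm were among the genes lower in C57BL/6. Ctsd, the lysosomal aspartic protease cathepsin D (chr7:142375911-142388038, minus strand), was at 7.46, 7.34 and 8.53 in C57BL/6 and at 8.87, 8.78 and 8.81 in CD1, a difference of -1.04 ± 0.22 (adjusted p = 0.0241). Lgmn, the lysosomal protease legumain (chr12:102394084-102439813, minus strand), was at 5.52, 5.49 and 7.14 against 7.47, 7.23 and 7.42, a difference of -1.32 ± 0.30 (adjusted p = 0.0425). Gatm, which catalyses the first step of creatine synthesis (chr2:122594467-122611303, minus strand), was at 0.94, 2.79 and 4.70 against 5.18, 5.15 and 5.18, a difference of -2.36 ± 0.54 (adjusted p = 0.0428). In all of these, C57BL/6 replicate 3 was the C57BL/6 library nearest to CD1. It lay below every CD1 library, but separate groups were a condition for naming these genes. Tmem8, which encodes a transmembrane protein, fell by 2.74 ± 0.53, Ehd4, an endocytic recycling gene, by 1.53 ± 0.33, and Npl, the sialic acid lyase, by 1.35 ± 0.29. Tnfaip8l2, a regulator of immune cell activation, fell by 2.72 ± 0.61. All of these calls ended when any library other than C57BL/6 replicate 3 was left out, with adjusted p-values of at most 0.258. Cd4, with 6 reads in C57BL/6 and 86 in CD1, and Serpinb6b, with 22 and 87, were also lower, and their calls too ended without any library but that one.

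Macrophage markers were low in the same libraries as Ctsd, Lgmn and Gatm. All 15 were lower in C57BL/6, at a median of -1.92, but 0 of 15 were called in limma. There all 15 had an unadjusted p under 0.05, against 14.2% of all genes, and the smallest adjusted p was 0.0703, for C1qa. With precision weights 6 were called lower, of 70 genes called lower in that fit, among them Csf1r, C1qa and Cx3cr1. Csf1r, the receptor for macrophage growth factors, was at 4.40, 4.79 and 7.21 in C57BL/6 and at 7.34, 7.52 and 7.32 in CD1. Replicate 3 lay within reach of CD1, and replicates 1 and 2 well below. Without replicate 3, 13 of the 15 markers were called lower, against 2.45% of all genes, at a median of -2.79. Replicate 3 exceeded the mean of replicates 1 and 2 by over 1 log2 unit in 9 of the 22 lower genes and in 0 of the 53 higher genes. That count takes upward shifts alone, which point toward CD1 in the lower genes and away from it in the higher genes. Replicate 3 was the C57BL/6 library nearest to CD1 in 14 of the 22 lower genes (63.6%) and in 30 of the 53 higher genes (56.6%). When the mean levels of the macrophage, endothelial, erythroid and liver lists were added to the fit, 10 genes were called, 9 of them higher in C57BL/6. Cwc22 was the lower one. All 75 genes kept their sign in that fit: the median of the 53 higher genes was 0.64 and that of the 22 lower genes was -0.89. Ctsd and Lgmn were then at -0.30 and -0.18, Gatm at -0.81, Tmem8 at -1.34, Tnfaip8l2 at -1.57, Serpinb6b at -2.35 and Inhba at -1.47. None of these genes was called in that fit, where the smallest adjusted p among them was 0.274, for Inhba (limma). The lists entered that fit together, and all had negative median differences between the strains, so the fit cannot give the part of macrophages. That part was not tested for any gene.

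**Figure D3:**
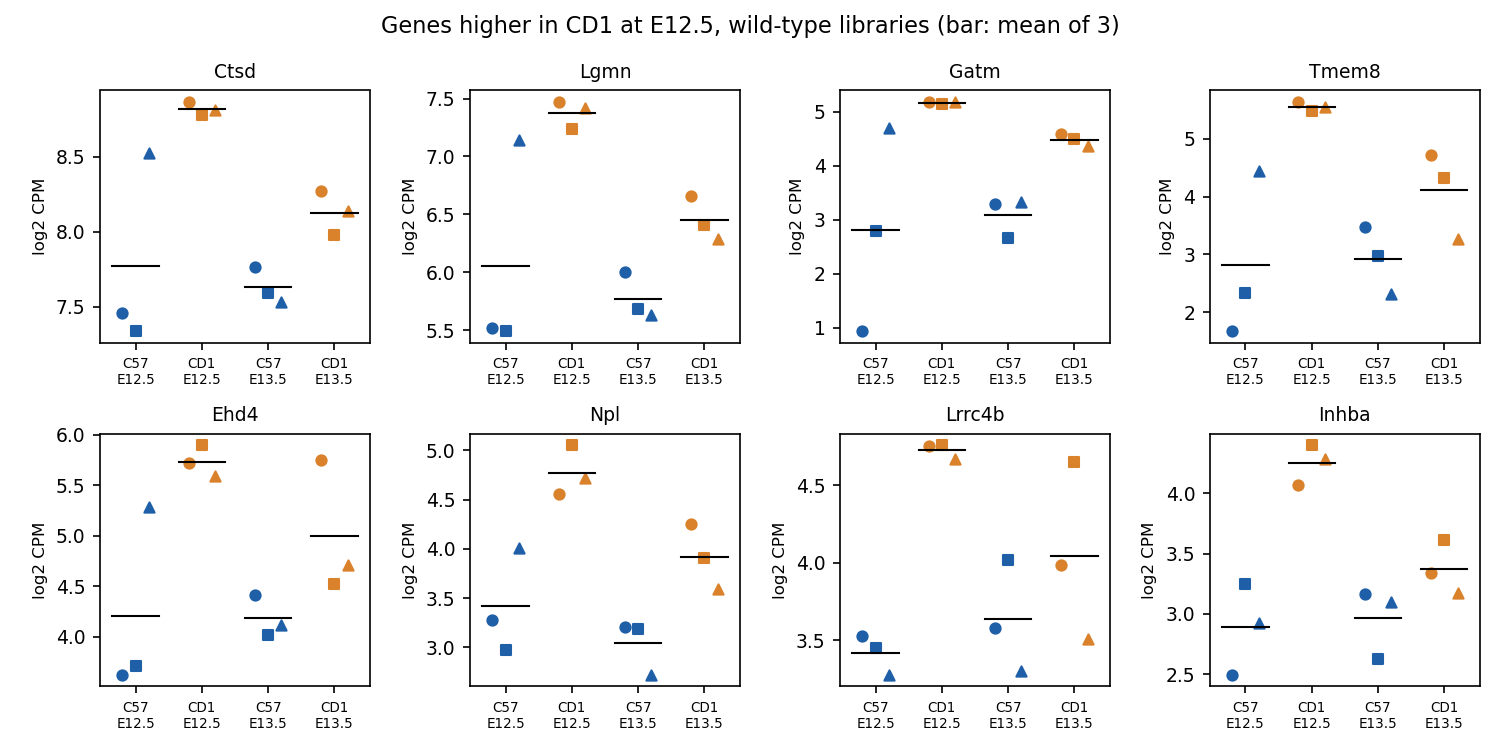
Log2 CPM (vertical axis) of 8 genes lower in C57BL/6 at E12.5, in the 12 wild-type libraries by strain and stage (horizontal axis), with circles, squares and triangles for replicates 1, 2 and 3 and a bar for the mean of 3. In Ctsd, Lgmn, Gatm, Tmem8, Ehd4 and Npl the E12.5 C57BL/6 replicate 3 lies above replicates 1 and 2, and in Lrrc4b it does not.

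Other genes lower in C57BL/6 showed no such displacement of replicate 3. Eno1b, an enolase gene (chr18:48045335-48048412, plus strand, with near-identical stretches at 3 other loci), was at 3.26, 3.02 and 3.22 in C57BL/6 and at 4.41, 4.06 and 4.27 in CD1, a difference of -1.08 ± 0.17 (adjusted p = 0.00354). Inhba, the gene of the activin A subunit, was at 2.50, 3.25 and 2.93 against 4.07, 4.39 and 4.29, a difference of -1.36 ± 0.28 (adjusted p = 0.0241). Lrrc4b, a gene of a synaptic adhesion protein, was at 3.53, 3.45 and 3.28 against 4.75, 4.76 and 4.67, a difference of -1.31 ± 0.24 (adjusted p = 0.0105). The CD1 libraries were higher throughout. Cwc22, a pre-mRNA splicing factor gene (chr2:77881159-77946375, minus strand), was at 5.38, 5.58 and 5.32 in C57BL/6 and at 6.17, 6.24 and 6.31 in CD1, a difference of -0.81 ± 0.10 (adjusted p = 6.48e-05). It lies in a mouse segment known to vary in copy number between stocks, and had near-identical stretches at 7 other loci. Differences in the same direction were also found for Prss23, a serine protease gene (-0.69 ± 0.12), Tcn2, the vitamin B12 carrier transcobalamin (-0.70 ± 0.13), Htra3, a secreted protease gene (-1.13 ± 0.26), and Tbc1d8, a Rab GTPase-activating protein gene (-1.24 ± 0.26). Bpgm, which sets 2,3-bisphosphoglycerate in red cells, differed by -0.90 ± 0.20, beside erythroid marker means of 2.60, 3.35 and 2.58 in C57BL/6 and 4.94, 4.96 and 4.95 in CD1, whose part was not tested. Eno1b and Cwc22 were called with any library left out, Lrrc4b and Prss23 not without C57BL/6 or CD1 replicate 2, and the other 5 genes lost their calls in 4 or 5 of the 6 fits, with adjusted p-values of at most 0.219.

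Most pathway and cell type lists held no called gene. Of 37 lists, 34 had none, and the 3 others were the ribosomal protein, Zfp and antiviral lists above. With 0.543% of all genes called, a short list would mostly hold none, so an empty list does not show that its genes were alike in the strains. The 18 stromal markers had a median difference of 0.08, and the nearest to a call was Fibin, a secreted factor gene of mesenchyme, at 5.87, 5.72 and 5.72 in C57BL/6 and 5.07, 5.19 and 5.03 in CD1 (0.68, adjusted p = 0.0726). Aldh1a2, the retinoic acid synthesis enzyme of renal stroma, stood at 10.38, 10.24 and 10.29 against 9.92, 9.73 and 9.80 (0.49, adjusted p = 0.162). Lists of Wnt targets, retinoic acid genes, Hox genes and GDNF and FGF genes had medians of -0.03, -0.04, 0.05 and 0.09. Ctnnb1, which encodes the β-catenin altered in the mutant groups of the series, stood at 10.85, 10.86 and 10.69 in C57BL/6 and 10.77, 10.74 and 10.75 in CD1 (0.05, adjusted p = 0.802). Genes of other cell types had wider medians: -0.22 for 15 nephron progenitor genes, -1.04 for 15 endothelial genes, -2.19 for 13 liver genes and -2.31 for 9 erythroid genes. All 15 endothelial, all 13 liver and all 9 erythroid genes had negative differences, none of them called. In these lists 1, 0 and 3 genes had an unadjusted p under 0.05, against 14.2% of all genes. Precision weights called the erythroid genes Hbb-bh1 and Slc4a1. In matrix genes, 22 of 25 were negative at a median of -0.28, again with no call and with 7 at an unadjusted p under 0.05. Without C57BL/6 replicate 3, 15 of the 37 lists held a called gene. Among them were 6 of 13 liver genes, all lower, against 2.45% of all genes called lower in that fit.

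Of 19 genes with known C57BL/6 variants, 9 were in the table and 0 were called in limma. An unadjusted p under 0.05 was found for 4, against 14.2% of all genes, and Apobec3 was called with precision weights. Nnt, in which the C57BL/6J substrain lacks several exons, was at 7.08, 7.14 and 7.21 in C57BL/6 and at 7.08, 7.17 and 7.13 in CD1. The groups overlapped, in gene-level values that do not resolve exons. Apobec3, a cytidine deaminase gene of retroviral restriction, differed by -0.73 (adjusted p = 0.0791). Alad, the haem synthesis enzyme with a known duplication in some strains, differed by -0.32 (adjusted p = 0.0883). In both the groups did not overlap, as in 20.1% of all genes. Ifi202b, an interferon-inducible gene, was at -0.65, -0.68 and 1.98 in C57BL/6 and at 2.42, 2.10 and 2.32 in CD1, so that replicate 3 again lay near CD1 (adjusted p = 0.293). Slc11a1, a metal transporter of macrophages, was called lower only when replicate 3 was left out. The sex-linked genes were not called either. Xist was at 9.30 to 9.50 in C57BL/6 and at 9.77 to 9.83 in CD1, and the Y-linked Ddx3y at 4.76 to 5.32 against 3.63 to 4.17. Each library thus held RNA of both sexes, and the difference in Ddx3y was 1.24 ± 0.67 (adjusted p = 0.412). The groups did not overlap in any of the 5 sex-linked genes, against 20.1% of all genes. The 4 Y-linked genes were higher and Xist was lower in C57BL/6. Their standard errors pool all groups, among them β-catSD at E12.5, where Xist ranged from -1.45 to 10.09. The sexes may be mixed differently in the strains, and the part of this was not tested.

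The same strain contrast at E13.5 used 6 other wild-type libraries, which share only the estimate of spread with those of E12.5. It called 58 genes (0.42% of 13803), 46 higher (0.333%) and 12 lower (0.0869%) in C57BL/6. Of the 75 genes called at E12.5, 20 were called again in the same direction and 0 in the opposite one, which is 26.7% of the first set and 34.5% of the second. The shared genes were 19 of the 53 higher genes and 1 of the 22 lower, Eno1b, at -1.01 ± 0.17 (adjusted p = 0.00583 at E13.5). Rgs5 was at 7.40, 7.50 and 7.57 in C57BL/6 and at 5.48, 4.94 and 4.78 in CD1 at this stage. Rps28, Rps2, Rpl29, Ncapd2, Pclaf, Cux2 and Il11ra1 were also called at both stages. The sign was the same at E13.5 in 73 of the 75, against 62.7% of all genes, and the E13.5 libraries lay apart in that direction in 55 of the 75, against 12.2% of all genes. The median difference of the 53 higher genes was 0.53 at E13.5, close to that at E12.5, and that of the 22 lower genes was -0.52. Macrophage marker means at E13.5 were 3.97, 3.15 and 3.23 in C57BL/6 and 4.48, 3.99 and 4.15 in CD1, with a median difference of -0.75. CD1 replicate 1 of E13.5 was high in endothelial and ureteric markers, and CD1 replicate 3 in liver markers. The count of 20 ranged from 10 to 29 when 1 of the 12 libraries was left out, and was 11, 10, 29 and 13 without C57BL/6 replicate 1, 2 or 3 and CD1 replicate 2 of E12.5, in that order.

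**Figure D4:**
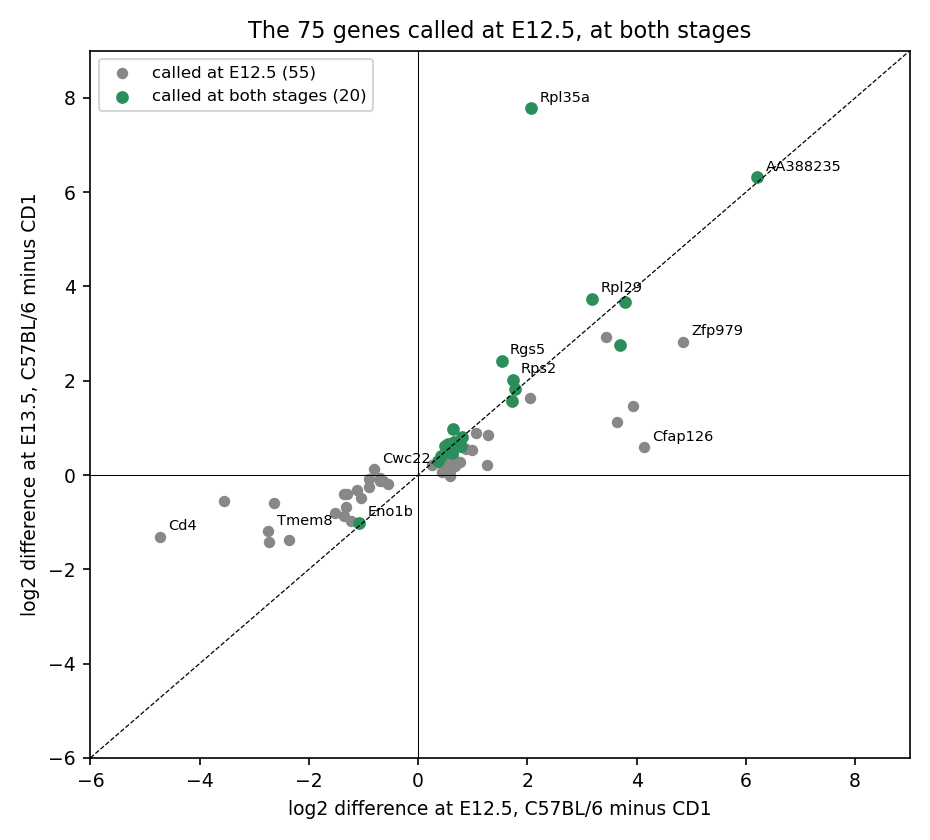
Log2 difference between C57BL/6 and CD1 wild-type stroma at E13.5 (vertical axis) against that at E12.5 (horizontal axis) for the 75 genes called at E12.5, with the 20 called at both stages in green and a dashed line of equal differences. Rpl35a lies above the line, and the genes lower in C57BL/6 lie closer to 0 at E13.5 than at E12.5.

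The strain difference itself changed between stages for 2 genes (0.0145% of those tested, with 712 genes at an unadjusted p under 0.05), Rpl35a and Cwc22. Rpl35a was at 4.71, 4.98 and 4.83 in C57BL/6 at E13.5, as at E12.5, but at -2.73, -2.17 and -3.94 in CD1. The E13.5 difference was 7.79 ± 0.37 and exceeded that at E12.5 by 5.72 ± 0.52. At E13.5 it had 713 reads over the C57BL/6 libraries and 3 over the CD1 libraries, so the fitted size depends on the offset added: the change was 2.86 with 1 CPM added before the logarithm, and its call ended with precision weights (adjusted p = 0.904, against at most 0.00259 under the other settings tried). Cwc22 was at 5.51, 5.57 and 5.77 in C57BL/6 and 5.46, 5.53 and 5.50 in CD1 at E13.5, with a difference of 0.12 ± 0.10, so that its strain difference was seen at the earlier stage alone and the stages differed by 0.93 ± 0.14 (adjusted p = 0.00601). Cwc22 was called under every setting tried, at adjusted p-values of at most 0.0433. Without C57BL/6 replicate 3 of E12.5 the count was 5, and without CD1 replicate 3 of E12.5 or CD1 replicate 1 of E13.5 it was 4.

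The 12 mutant libraries show which differences followed the strain background across genotypes, although background and mutant genotype cannot be told apart in them. In 21 of the 75 genes, 12 higher and 9 lower, all 9 other C57BL/6 libraries lay on one side of all 9 other CD1 libraries in the E12.5 direction, against 1.34% of all genes (1.46% in either direction). AA388235 had no read in any CD1 library, wild-type or β-catSO, and lay between 1.53 and 2.94 in every C57BL/6 library. Eno1b was at 1.95 to 2.87 in β-catSD and at 4.15 to 4.60 in β-catSO. Rps2 was at 5.81 to 6.82 in β-catSD and at 1.45 to 3.36 in β-catSO. Rps28, Ncapd2, Mns1, Celf4, Osgep, Fut10, Tob2, Cpne1 and Trim12a were also among the 12 higher genes. The 9 lower genes were Eno1b, Ctsd, Lgmn, Gatm, Ehd4, Npl, Tnfaip8l2, Tbc1d8 and Abhd12. In Ctsd, Lgmn, Gatm, Ehd4, Npl, Tnfaip8l2 and Abhd12, C57BL/6 wild-type replicate 3 of E12.5 was the library nearest to CD1, as in its macrophage markers. The part of cell content in the differences between the mutant libraries was not tested.

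Other called differences did not extend to the mutants of the same background. Each library was placed by the midpoint of the gap between the E12.5 wild-type groups, by whose difference the genes were called. The share over all genes was not taken, so the counts that follow describe this set only. All 6 β-catSO libraries lay on the C57BL/6 side in 23 of the 75 genes, and all 6 β-catSD libraries on the CD1 side in 2. Rgs5 is of the first kind: it was at 7.02 to 7.44 in β-catSO, level with β-catSD at 7.12 to 7.53 and with C57BL/6 wild-type, so that the CD1 wild-type libraries alone were low. Rpl35a, at 4.25 to 6.07 in β-catSO, had the same pattern. Cwc22, at 5.30 to 5.55 in β-catSO, was high in the CD1 wild-type libraries of E12.5 and in no other group. Pclaf, Kif11, Pbk and Cdk6 also lay on the C57BL/6 side in all β-catSO libraries, with Cdk6 at 5.71 to 6.41 there against 5.36 to 5.53 in C57BL/6 wild-type at E12.5. Rpl29 is of the second kind, at -0.21 to 1.18 in β-catSD and -2.15 to 1.17 in β-catSO, so that the C57BL/6 wild-type libraries alone were high. Genotype and any other difference between these groups of libraries cannot be told apart.

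**Figure D5:**
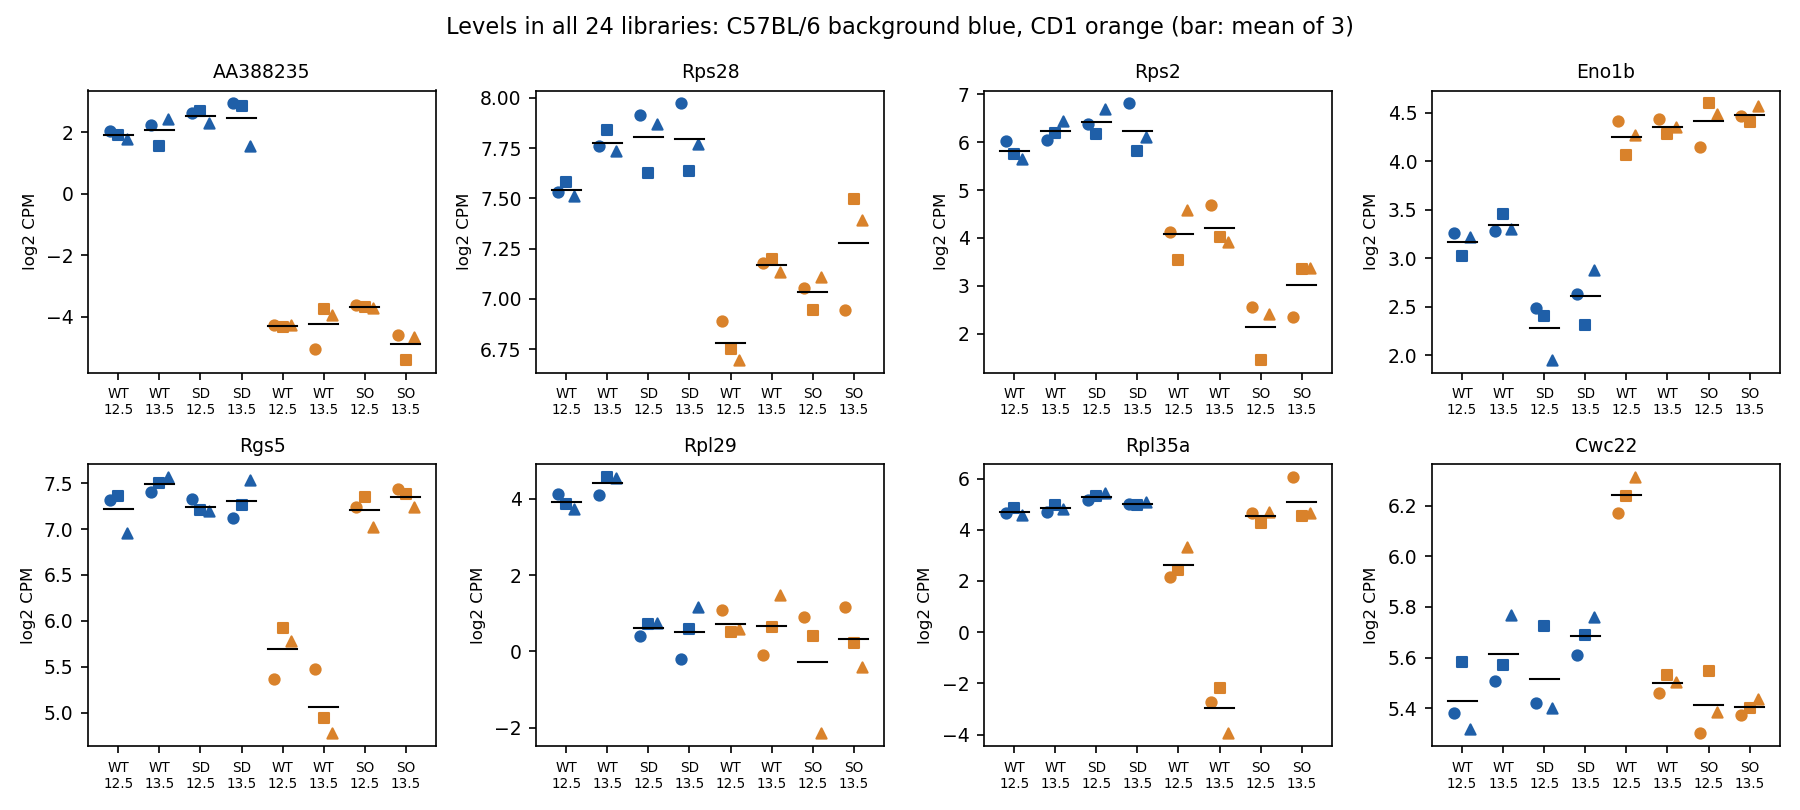
Log2 CPM (vertical axis) of 8 genes in all 24 libraries by genotype and stage (horizontal axis: WT wild-type, SD β-catSD, SO β-catSO, with embryonic day), with C57BL/6 background in blue, CD1 in orange, circles, squares and triangles for replicates 1, 2 and 3, and a bar for the mean of 3. The upper genes separate the backgrounds in all groups, and in the lower genes the wild-type groups of a background differ from its mutants or between stages.

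The called genes were spread over 20 chromosomes. No 3 neighbouring genes were called in the same direction, and 4 pairs of called genes had starts within 1 Mb: Zfp979 with Fbxo44 at 540.9 kb and Cdk6 with Gatad1 at 291.4 kb, both higher in C57BL/6, and Cd4 with Cdca3 at 35.1 kb and with Ncapd2 at 303.3 kb, in opposite directions. Of the 72 called genes that could be placed, 27 had a near-identical stretch at another locus (37.5%, against 24.2% of all placed genes). For 5 or more loci the counts were 5 of 72, namely Rpl29, Rps2, Tuba1b, Osgep and Cwc22, against 1.65% of all placed genes. A gene on the opposite strand overlapped 31 of the 72, against 44.8% of all placed genes, and whether the authors' counting used strand is not given in the sources used here.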

How the data were processed

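RNA was sequenced from sorted kidney stromal cells on an Illumina HiSeq. Per the submitters' processing notes, reads were processed with HISAT2, HTSeq and limma on mm10, with no version, strand setting or gene filter stated there. The authors deposited log2 CPM values with 0.5 read added per gene and TMM-scaled library sizes. Whole reads were recovered from them (100% of values within 0.1 of a whole number) and used for depths, floors and low-count ratios. Levels and differences are on that log2 scale, on which the size for genes with few reads depends on the offset.

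Group means of all 8 groups (24 libraries) were fitted with limma 3.58.1 in R 4.3.3, with a trended prior and 16 residual degrees of freedom. The strain contrasts at E12.5 and E13.5 and their difference were adjusted by Benjamini-Hochberg over 13803 genes, with a call at an adjusted p under 0.05. A filter of log2 CPM above 0 in 3 libraries removed 0 genes. The fit was tested on simulated data. Positions came from GENCODE M21 (98.9% of symbols matched), and near-identical copies from BLAST 2.17.0 against the annotated transcripts. Named genes were, for each direction, the 14 largest differences and the 5 smallest p-values with separate groups, a mean log2 CPM above 0 and a given name, up to 4 called members of each of 37 lists, known C57BL/6 variants, Foxd1, Ctnnb1 and sex-linked genes, and the genes called for the difference between stages. One called gene that the rule would name is counted but not reported here. Members and lists were chosen with earlier results of these data known. Intervals and floors cover counting error only. Alternatives were the replicate number as a block, other sets of libraries, voom weights, a pseudocount of 1 CPM, other filters, quantile normalization, cell type covariates and leaving out each library.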

Additional observations from a re-analysis of the deposited data

Results flagged for a closer look

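The strain difference changed between E12.5 and E13.5 in Rpl35a, by 5.72 on the log2 scale. The 3 CD1 libraries were at 2.15 to 3.33 at E12.5 and at -3.94 to -2.17 at E13.5, with 3 reads in all at the later stage, while the C57BL/6 libraries lay between 4.58 and 4.98. It changed in Cwc22 by 0.93, where the 3 CD1 libraries were at 6.17 to 6.31 at E12.5 and 5.46 to 5.53 at E13.5. Both changes were found by a test of the difference between stages, and that of Rpl35a was not called with voom weights.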

How the results depend on the processing

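The 75 genes called at E12.5 became 30 with only the 12 wild-type libraries (26 of them shared), 122 with voom weights and 10 with cell type covariates, and 18 to 459 when 1 library was left out. Calls at both stages, 20, became 6 with covariates and ranged from 10 to 29 with 1 library left out. Calls for the difference between stages, 2, became 9 with covariates and 1 with voom weights, and ranged from 2 to 5. With only the 6 libraries, 83 genes were called, 43 higher and 40 lower, of which 34 were shared. Quantile normalization called 103, a pseudocount of 1 CPM 111, the filter at log2 CPM above 1 68, and no filter 75. With a replicate block the count was again 75, of which 66 were shared, and 21 and 2 for the other counts; deviations of same-numbered libraries correlated at 0.211, 0.08 and 0.033, so the numbers were not taken to pair samples. None of the 75 genes changed sign under the alternatives in which it was tested (68 of the 75 under the stricter filter), and 12 were called in each of the 6 fits without a library of E12.5. The causes of these changes were not tested. Planned edgeR and DESeq2 fits were not run, since the deposited values are log2 values. Ratios of genes with few reads are limited by depth.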
